A study of Homo sapiens with 9 samples.

Results

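Transcripts of the nuclear transport receptors of the importin alpha family and of their core partners were followed in KYSE180 cells, a line from a human squamous cell carcinoma of the esophagus. The set holds 10 genes of the 57905 in the count table. They are the importin alphas KPNA1, KPNA2, KPNA3, KPNA4, KPNA5 and KPNA6, importin beta KPNB1, the export receptors XPO1 and CSE1L, and the GTPase RAN. All 10 were found by gene symbol. The set was chosen by function around KPNA2, which itself was selected on its fold change against the control with both hairpins, so values against the control, and the counts of calls made from them, are given as a description that supports nothing.

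The samples form 3 groups of 3 libraries, named here as their titles do. In shEZH2#1 and in shEZH2#3, cells carried 1 of 2 short hairpin RNAs against EZH2, which methylates histone H3 within the Polycomb repressive complex. In shluc, the control, cells carried a hairpin whose name points to luciferase. All groups share the same irradiation, 6 Gy, and the series title calls the line KDM6A-deficient, so no library came from unirradiated cells. A genotype label describes the EZH2 libraries as knockout and the shluc libraries as WT, while titles and design text speak of hairpins. No label says when cells were collected after irradiation, or that the replicates were separate cultures. The p-values below therefore cover only how far these libraries scatter, and that scatter may be technical.

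Importin alphas are adaptors: each binds the classical nuclear localization signal of a cargo protein and hands it to KPNB1, which carries the complex through the nuclear pore. Inside the nucleus RAN in its GTP form opens the complex, CSE1L takes the empty importin alpha back to the cytoplasm, and XPO1 carries proteins with leucine-rich export signals outwards. In mitosis the same importins hold spindle assembly factors until RAN-GTP near the chromosomes frees them. KPNA2 is known as a gene of proliferating cells and is often abundant in carcinomas.

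The start regions of KPNA2, CSE1L and KPNA1 are shown because the family differs there in letters known from promoters of cell cycle genes. The windows are the 250 bases before the RefSeq start on GRCh38.p14, written 5′ to 3′ on the gene's strand. Capitals mark the motifs searched on both strands: CCAAT, and the cell cycle homology region (CHR) spelled TTTGAA or TTCGAA. No marked match overlaps another.
KPNA2, chr17:68035485-68035734, plus strand: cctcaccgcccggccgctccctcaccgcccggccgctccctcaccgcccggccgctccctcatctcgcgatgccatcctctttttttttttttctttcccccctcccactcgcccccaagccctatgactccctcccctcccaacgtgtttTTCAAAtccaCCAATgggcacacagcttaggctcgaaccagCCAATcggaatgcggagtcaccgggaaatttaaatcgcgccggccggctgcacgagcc
CSE1L, chr20:49046062-49046311, plus strand: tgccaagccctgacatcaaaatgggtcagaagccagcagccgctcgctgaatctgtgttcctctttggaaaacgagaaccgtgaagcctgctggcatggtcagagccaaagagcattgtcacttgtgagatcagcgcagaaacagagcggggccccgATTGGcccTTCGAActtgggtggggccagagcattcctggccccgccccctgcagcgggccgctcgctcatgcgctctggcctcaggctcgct
KPNA1, chr3:122514940-122515189, minus strand: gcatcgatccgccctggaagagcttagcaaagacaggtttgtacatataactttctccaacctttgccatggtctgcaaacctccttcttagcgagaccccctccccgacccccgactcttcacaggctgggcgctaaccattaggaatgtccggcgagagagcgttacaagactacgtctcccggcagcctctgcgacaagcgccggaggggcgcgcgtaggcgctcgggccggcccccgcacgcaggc
KPNA2 held TTTGAA on the opposite strand at −99 to −94 and CCAAT at −89 to −85 and −58 to −54, counted back from the start. CSE1L held CCAAT on the opposite strand at −93 to −89 and TTCGAA at −85 to −80. KPNA1, KPNA3 and RAN held none of these letters in the window, KPNA6 held CCAAT at −68 to −64 and, on the opposite strand, at −74 to −70, and XPO1, which has a pair of windows in the table, held it at −75 to −71 and −32 to −28 in one (chr2:61538357-61538606) and held none of the letters in the other (chr2:61537088-61537337). Over 35116 windows of the same length in the RefSeq table, 13.3% held TTTGAA, 1.19% TTCGAA, 32.0% CCAAT, and 5.05% held CCAAT together with either CHR. A match describes letters and is no evidence of binding. KPNA4, KPNA5 and KPNB1 had no entry in that table.

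Library totals ran between 14958011 and 21152006 estimated counts. EZH2, the gene that the hairpins target, had 10.1 ± 2.41 CPM in shEZH2#1 and 9.94 ± 0.989 CPM in shEZH2#3, against 19.3 ± 0.890 CPM in shluc (SD, n = 3 each), where CPM is the count scaled by TMM to a common library total. Of the 8 squamous markers checked, KRT17 had a mean of 1165 CPM or more in each group and SFN 420 CPM or more. KRT16 averaged 7.88 CPM in shEZH2#1, 2.83 CPM in shEZH2#3 and 2.48 CPM in shluc. KRT5, KRT14, KRT6A, TP63 and DSG3, which define squamous cells, were each under 1 CPM on average in each group. The list thus bears out the labelled squamous identity only in part. PTPRC and CD3E of the leukocyte list, COL1A2 of the fibroblast list and KDR of the endothelial list were at 0 in all 9 libraries. Other genes of these lists were present. COL1A1 averaged 26.1 CPM in shEZH2#1, 67.5 CPM in shEZH2#3 and 46.8 CPM in shluc, and DCN 25.0, 18.5 and 11.3 CPM. Of 6 fibroblast genes 5 passed the filter on low counts, and the summed list reached 53.9 to 62.4 CPM in shEZH2#1, 79.5 to 118 CPM in shEZH2#3 and 59.5 to 68.3 CPM in shluc. The endothelial list (2 of 4 genes tested), nearly all CDH5, summed to 7.97 to 8.29 CPM in shEZH2#1, 28.4 to 32.7 CPM in shEZH2#3 and 13.8 to 19.8 CPM in shluc. The leukocyte list (1 of 5 genes tested) summed to 6.08 CPM or less in each library. In shEZH2#1, 2 genes without a symbol took 15.8 to 22.6% of the counts, against 5.97 to 11.6% in shEZH2#3 and 6.96 to 9.28% in shluc. What these differences add to the values below was not tested.

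KPNA2 (ENSG00000182481, chromosome 17, 68035519 to 68046842, plus strand, GENCODE 29 on GRCh38) was the dominant importin alpha and stood lower with both hairpins. Its level was 142, 134 and 128 CPM in shEZH2#1, and 70.6, 87.8 and 99.0 CPM in shEZH2#3, against 240, 275 and 256 CPM in shluc (replicates 1 to 3). All 6 libraries with an EZH2 hairpin lay below the lowest shluc library, and shEZH2#3 lay below shEZH2#1 without overlap. The group means were 52.4% of the shluc mean in shEZH2#1 and 33.4% in shEZH2#3. The fitted log2 fold change was −0.93 ± 0.15 for shEZH2#1 and −1.58 ± 0.16 for shEZH2#3 against shluc (approximate SE), the lowest among the 9 tested genes of the set in each comparison. These are levels in bulk RNA, in which fewer cells of a type and less RNA per cell cannot be told apart. Processed copies of KPNA2 took few counts: KPNA2P1 had 6 and KPNA2P3 16.0 over all libraries, and KPNA2P2 none, against 28182 for KPNA2.

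**Figure D1:**
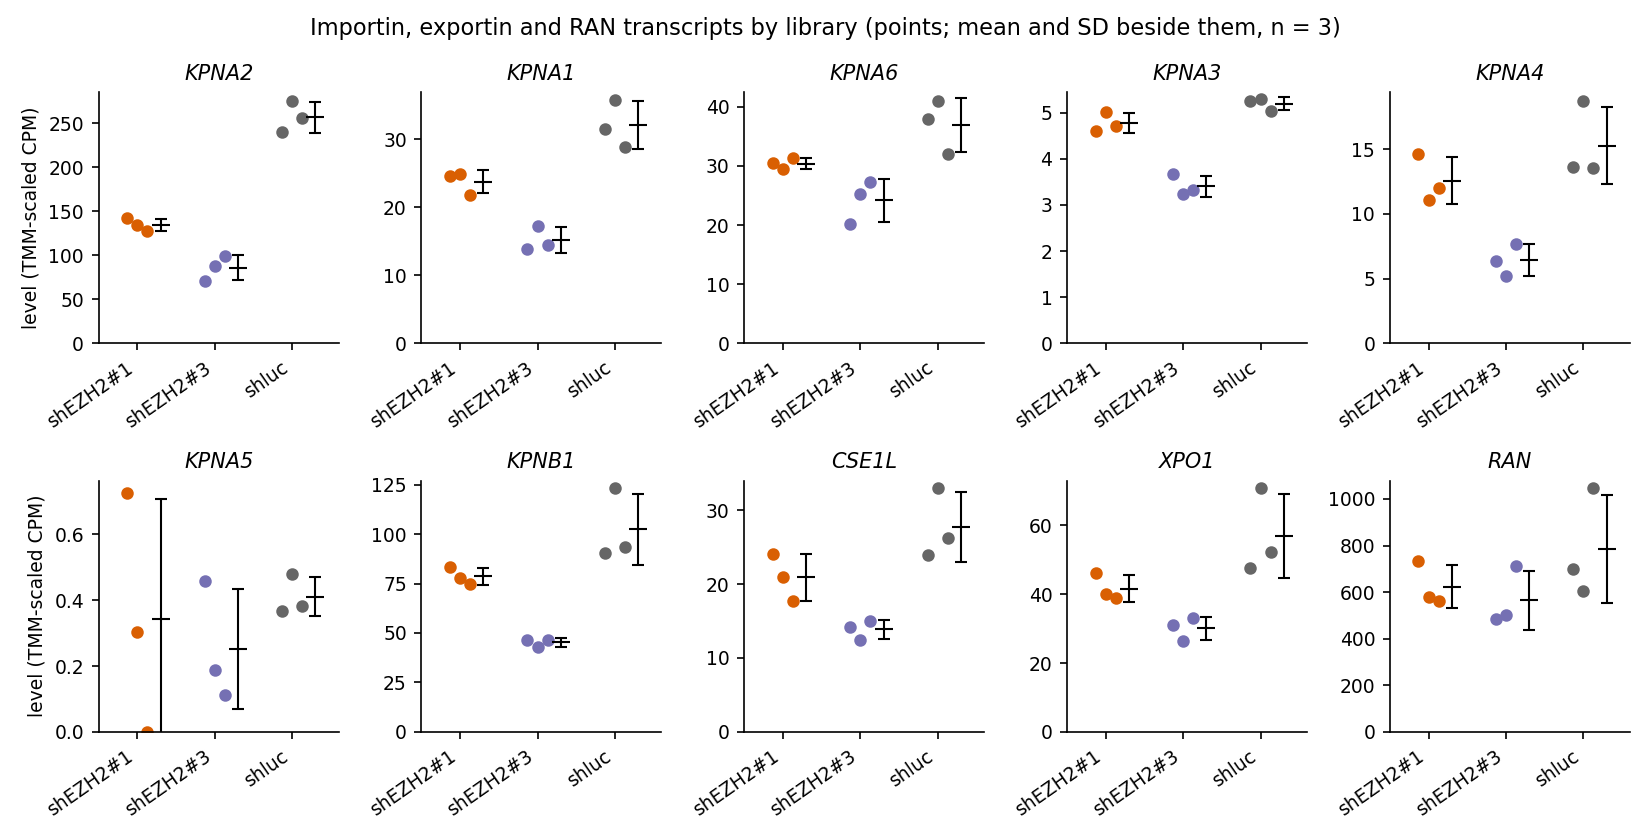
Level of each of the 10 genes (y axis, TMM-scaled CPM, each panel on its own linear scale from 0) in shEZH2#1, shEZH2#3 and shluc. Points are libraries (replicates 1 to 3, left to right in a group) and the bar beside them is the mean and SD (n = 3). KPNA2 had 128 to 142 CPM in shEZH2#1, 70.6 to 99.0 CPM in shEZH2#3 and 240 to 275 CPM in shluc, whereas the RAN groups overlapped.

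The other importin alphas are widely expressed adaptors that recognise overlapping sets of cargo. KPNA1 (ENSG00000114030, chromosome 3, 122421949 to 122514945, minus strand) had 24.6, 25.0 and 21.9 CPM in shEZH2#1, and 13.8, 17.3 and 14.4 CPM in shEZH2#3, against 31.5, 35.9 and 28.95 CPM in shluc. Its 3 groups did not overlap, and the log2 fold change was −0.43 ± 0.15 for shEZH2#1 and −1.08 ± 0.16 for shEZH2#3. An antisense gene, AC083798.2, shares 1377 bases with KPNA1 and had 9.64 to 56.6 counts per library, against 242 to 899 for KPNA1; since the strand setting of the counting is not given in the sources used here, reads of the pair may not have been told apart.

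KPNA6 (ENSG00000025800, chromosome 1, 32108038 to 32176568, plus strand) is a close relative of KPNA1 and KPNA5. It had 30.5, 29.4 and 31.3 CPM in shEZH2#1, and 20.1, 25.3 and 27.2 CPM in shEZH2#3, against 37.9, 40.9 and 32.1 CPM in shluc. Here too the groups did not overlap, although the highest shEZH2#1 library and the lowest shluc library were close together. The log2 fold change was −0.28 ± 0.16 for shEZH2#1 and −0.61 ± 0.16 for shEZH2#3.

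KPNA3 (ENSG00000102753, chromosome 13, 49699307 to 49792921, minus strand) and KPNA4 (ENSG00000186432, chromosome 3, 160494995 to 160565588, minus strand) form the subfamily known for importing NF-kappaB. KPNA3 had 4.60, 5.01 and 4.70 CPM in shEZH2#1, and 3.66, 3.24 and 3.31 CPM in shEZH2#3, against 5.25, 5.30 and 5.03 CPM in shluc. The shEZH2#1 and shluc libraries of KPNA3 were nearly adjacent, with a log2 fold change of −0.12 ± 0.21, whereas that of shEZH2#3 was −0.61 ± 0.21. KPNA4 had 14.6, 11.1 and 12.0 CPM in shEZH2#1, and 6.35, 5.24 and 7.68 CPM in shEZH2#3, against 13.6, 18.7 and 13.5 CPM in shluc. For KPNA4 the shEZH2#1 and shluc libraries overlapped (−0.28 ± 0.19), and all shEZH2#3 libraries lay below both groups (−1.25 ± 0.20). The shEZH2#1 value of KPNA4 was −0.12 without shluc replicate 2 and −0.43 without shEZH2#1 replicate 1. A keratin pseudogene on the opposite strand, KRT8P12, shares 142 bases with KPNA4 and had 9 to 28 counts per library, against 84 to 470 for KPNA4, with the same limit on telling reads apart.

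KPNA5 (ENSG00000196911, chromosome 6, 116681187 to 116741866, plus strand) was barely detected and did not pass the filter on low counts, so it has no fold change. It had 12, 5 and 0 counts in shEZH2#1, and 8, 3 and 2 counts in shEZH2#3, against 8, 12 and 8 counts in shluc. The remaining human importin alpha, KPNA7, which is mainly known from oocytes and early embryos and is outside the set, was at 0.544 CPM or below in all 9 libraries and was not tested either.

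Set on a scale per length (CPM per kb of the gene's longest coding transcript), the order of levels in shluc was RAN, KPNA2, KPNB1, XPO1, CSE1L, KPNA6, KPNA1, KPNA4, KPNA3 and KPNA5. RAN had 228 to 394 CPM per kb in shluc, KPNA2 97.7 to 112, KPNB1 14.8 to 20.1, XPO1 9.70 to 14.4 and CSE1L 6.72 to 9.28. KPNA6, at 4.34 to 5.54 CPM per kb, and KPNA1, at 4.24 to 5.25, were neighbours whose shluc libraries overlapped; the other neighbours in that order did not overlap. In shEZH2#3 KPNA4, at 0.583 to 0.855 CPM per kb, and KPNA3, at 0.725 to 0.818, overlapped, as did CSE1L, at 3.49 to 4.21, and KPNA6, at 2.73 to 3.69, and KPNA6 lay above KPNA1 without overlap.

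Summed over KPNA1 to KPNA7, the importin alpha level was 65.1 ± 3.24 CPM per kb in shEZH2#1 and 42.1 ± 6.46 in shEZH2#3, against 117 ± 8.08 in shluc (SD, n = 3 each). Most of that sum was KPNA2, and its share was smaller with both hairpins: 84.0 to 84.3% in shEZH2#1 and 81.7 to 84.0% in shEZH2#3, against 88.6 to 90.2% in shluc. The shares rest on the transcript lengths used, 2456 bases for KPNA2 against 7378 for KPNA6 and 6830 for KPNA1. Since KPNA2 was selected on its fold change, its smaller share follows in part from that choice. The share of KPNA6 was 6.03 to 6.84% in shEZH2#1 and 7.69 to 7.95% in shEZH2#3, against 3.77 to 4.65% in shluc, and none of these 3 groups overlapped. That of KPNA1 was 5.16 to 5.64% in shEZH2#1 and 4.40 to 5.89% in shEZH2#3, against 3.68 to 4.18% in shluc. The larger shares go with a smaller sum, not with more KPNA6 or KPNA1 RNA. Without KPNA2 the sum was 10.3 ± 0.430 CPM per kb in shEZH2#1 and 7.16 ± 0.637 in shEZH2#3, against 12.7 ± 1.44 in shluc.

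**Figure D2:**
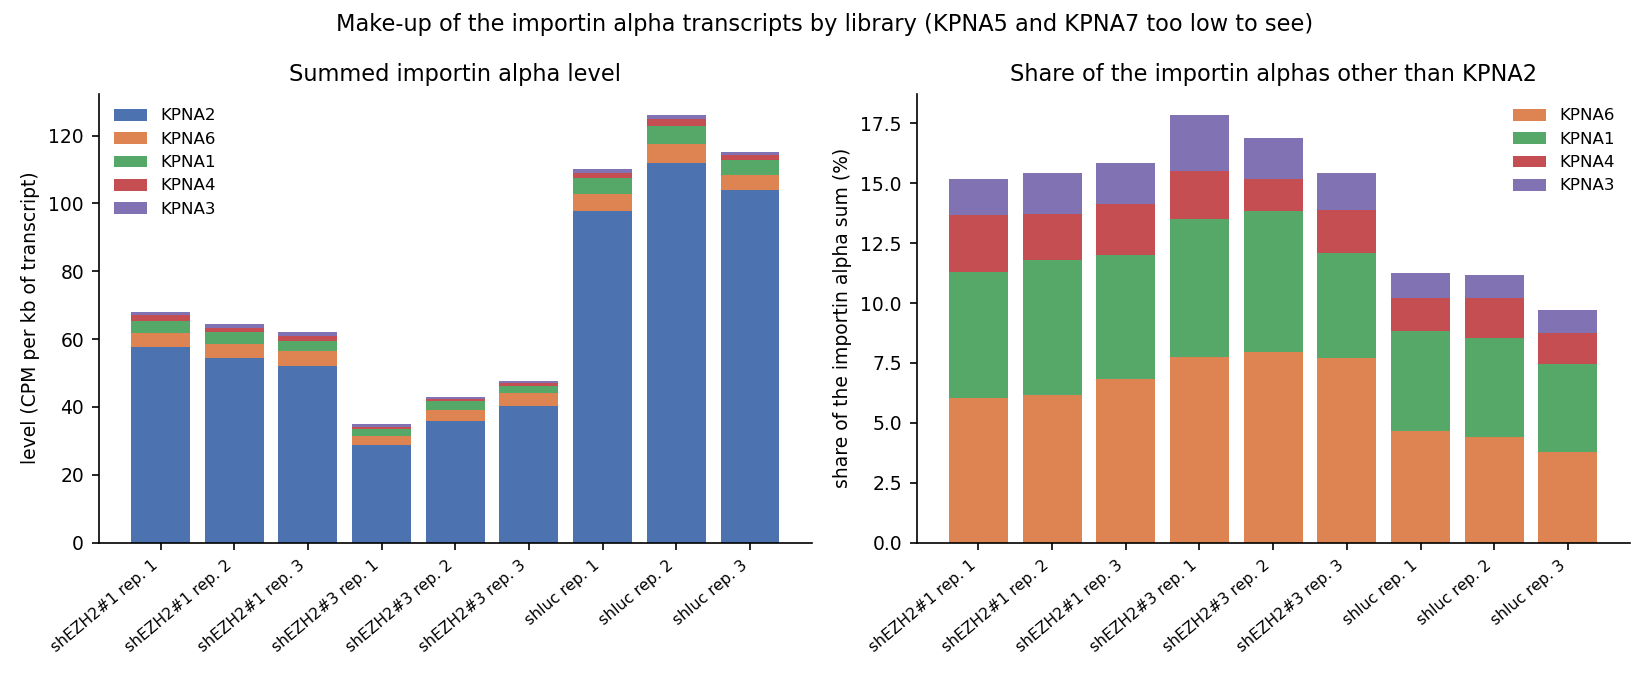
Make-up of the importin alpha transcripts in each of the 9 libraries (x axis). The left panel stacks the levels of KPNA2, KPNA6, KPNA1, KPNA4 and KPNA3 (y axis, CPM per kb of transcript), and the right panel stacks the shares of the importin alphas other than KPNA2 (y axis, percent of the sum). The sum was 62.0 to 68.5 in shEZH2#1, 35.2 to 48.0 in shEZH2#3 and 110 to 126 in shluc, with KPNA2 as the tallest part of each bar.

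KPNB1 (ENSG00000108424, chromosome 17, 47649476 to 47685505, plus strand), the carrier that importin alphas share, had 83.5, 77.9 and 74.8 CPM in shEZH2#1, and 46.4, 42.8 and 46.3 CPM in shEZH2#3, against 90.6, 123 and 93.6 CPM in shluc. The 3 groups did not overlap, and shEZH2#3 stood furthest from shluc, with a log2 fold change of −1.18 ± 0.15, against −0.38 ± 0.15 for shEZH2#1, which was −0.24 without shluc replicate 2. The ratio of summed importin alpha to KPNB1, both per kb, was 5.04 to 5.11 in shEZH2#1 and 4.66 to 6.36 in shEZH2#3, against 6.29 to 7.56 in shluc. Only the shEZH2#1 range lay wholly below shluc in that ratio, since shEZH2#3 replicate 3 exceeded shluc replicate 2.

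CSE1L (ENSG00000124207, chromosome 20, 49046246 to 49096960, plus strand), which recycles importin alpha, had 24.0, 21.01 and 17.7 CPM in shEZH2#1, and 14.2, 12.4 and 15.0 CPM in shEZH2#3, against 23.9, 33.0 and 26.3 CPM in shluc. The highest shEZH2#1 library of CSE1L was level with the lowest shluc library, so these groups overlapped (log2 fold change −0.40 ± 0.17). All shEZH2#3 libraries were lower than both other groups (−0.999 ± 0.17 against shluc). The ratio of KPNA2 to CSE1L, both per kb, was 8.54 to 10.5 in shEZH2#1 and 7.20 to 10.2 in shEZH2#3, against 12.1 to 14.6 in shluc, with no overlap between either hairpin and shluc.

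XPO1 (ENSG00000082898, chromosome 2, 61477849 to 61538626, minus strand), the general protein exporter and the target of selinexor, had 46.2, 39.9 and 38.8 CPM in shEZH2#1, and 30.9, 26.4 and 33.0 CPM in shEZH2#3, against 47.7, 70.8 and 52.2 CPM in shluc. Its groups did not overlap, but shluc replicate 2 stood well above the other shluc libraries. The log2 fold change of XPO1 was −0.45 ± 0.17 for shEZH2#1, or −0.28 without that library, and −0.92 ± 0.17 for shEZH2#3.

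RAN (ENSG00000132341, chromosome 12, 130871879 to 130877678, plus strand) had 731, 577 and 563 CPM in shEZH2#1, and 483, 500 and 711 CPM in shEZH2#3, against 699, 606 and 1049 CPM in shluc. Each hairpin's range overlapped that of shluc. The log2 fold change was −0.33 ± 0.20 for shEZH2#1 and −0.47 ± 0.20 for shEZH2#3. Both rested in part on the highest shluc library: without shluc replicate 3 they were −0.066 and −0.21, and without shluc replicate 2 they were −0.50 and −0.64. RANP1, a processed copy, had 112 counts over all libraries, against 110916 for RAN.

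Of the 9 tested genes, KPNA2 passed an adjusted p of 0.05 in shEZH2#1 against shluc, beside 7.89% of all 13252 tested genes called lower there. In shEZH2#3 against shluc 8 of 9 passed, all but RAN, beside 19.8% of all tested genes called lower. KPNA2 was called lower with both hairpins, as were 3.26% of tested genes. Because the set was chosen with these comparisons known, nothing is read from these counts, and both comparisons share the shluc libraries. Libraries did not overlap, with the hairpin lower, for 6 of 9 genes in shEZH2#1 (18.9% of all tested genes) and for 8 of 9 in shEZH2#3 (26.0%). All 9 fold changes were negative in both comparisons (6 of 9 in shEZH2#1 with the correction for GC content and length described below), where 55.7% and 50.6% of all tested genes were negative, and the member nearest to 0 was KPNA3 in shEZH2#1 and RAN in shEZH2#3. The median of the 9 was −0.38 in shEZH2#1 and −0.999 in shEZH2#3, against −0.07 and −0.01 over all tested genes. The count in shEZH2#1 depended on single libraries: it was 3 without shluc replicate 3, with KPNA1 (−0.50) and XPO1 (−0.51) added, and 2 without shluc replicate 1 or without shEZH2#3 replicate 1, with XPO1 added. In shEZH2#3 KPNA3 lost its call without shEZH2#3 replicate 2 (−0.58) or replicate 3 (−0.59), while RAN gained one without shEZH2#3 replicate 3 (−0.68) or shluc replicate 2 (−0.64).

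**Figure D3:**
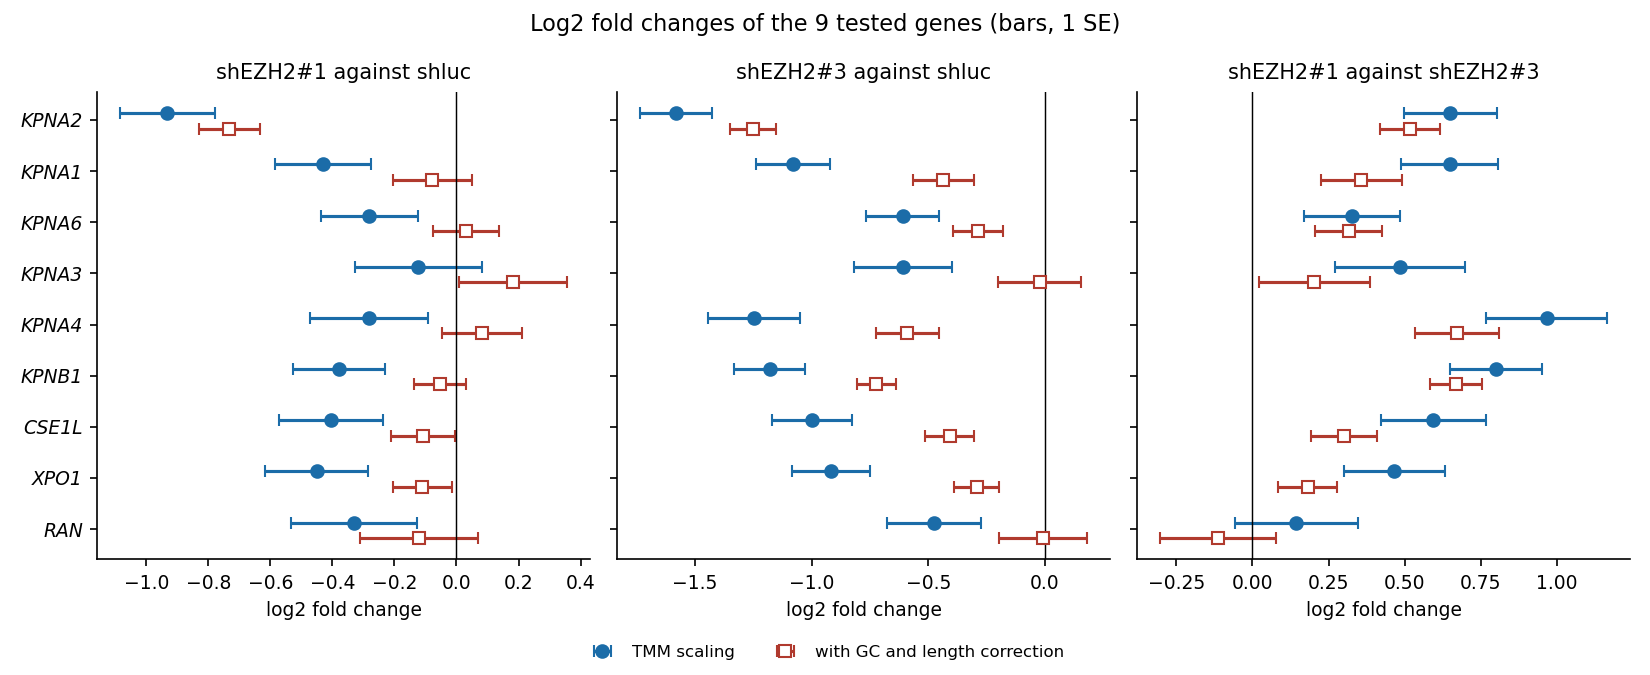
Log2 fold changes (x axis) of the 9 tested genes (y axis) for shEZH2#1 against shluc, shEZH2#3 against shluc and shEZH2#1 against shEZH2#3. Filled circles are from the fit with TMM scaling, open squares from the fit that also corrects for GC content and length, and bars are 1 SE. KPNA2 is furthest left in both comparisons with shluc, at −0.93 and −1.58, while KPNA3, KPNA4 and KPNA6 change sign for shEZH2#1 under the correction, and RAN does so between the hairpins.

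Fold changes in this series moved with the GC content of transcripts, and the genes of the set are all on the low side. Their longest coding transcripts had 39.1 to 47.5% GC among the 9 tested genes, below the median of 50.3% over all tested genes. With all tested genes split into 10 bins of equal size by GC, the 9 fall in bins 2 to 5 from the low end, in which the median log2 fold change of all genes was −0.25 to −0.21 in shEZH2#1 and −0.61 to −0.20 in shEZH2#3. In the bin with the highest GC it was 0.47 in shEZH2#1 and 0.70 in shEZH2#3.

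**Figure D4:**
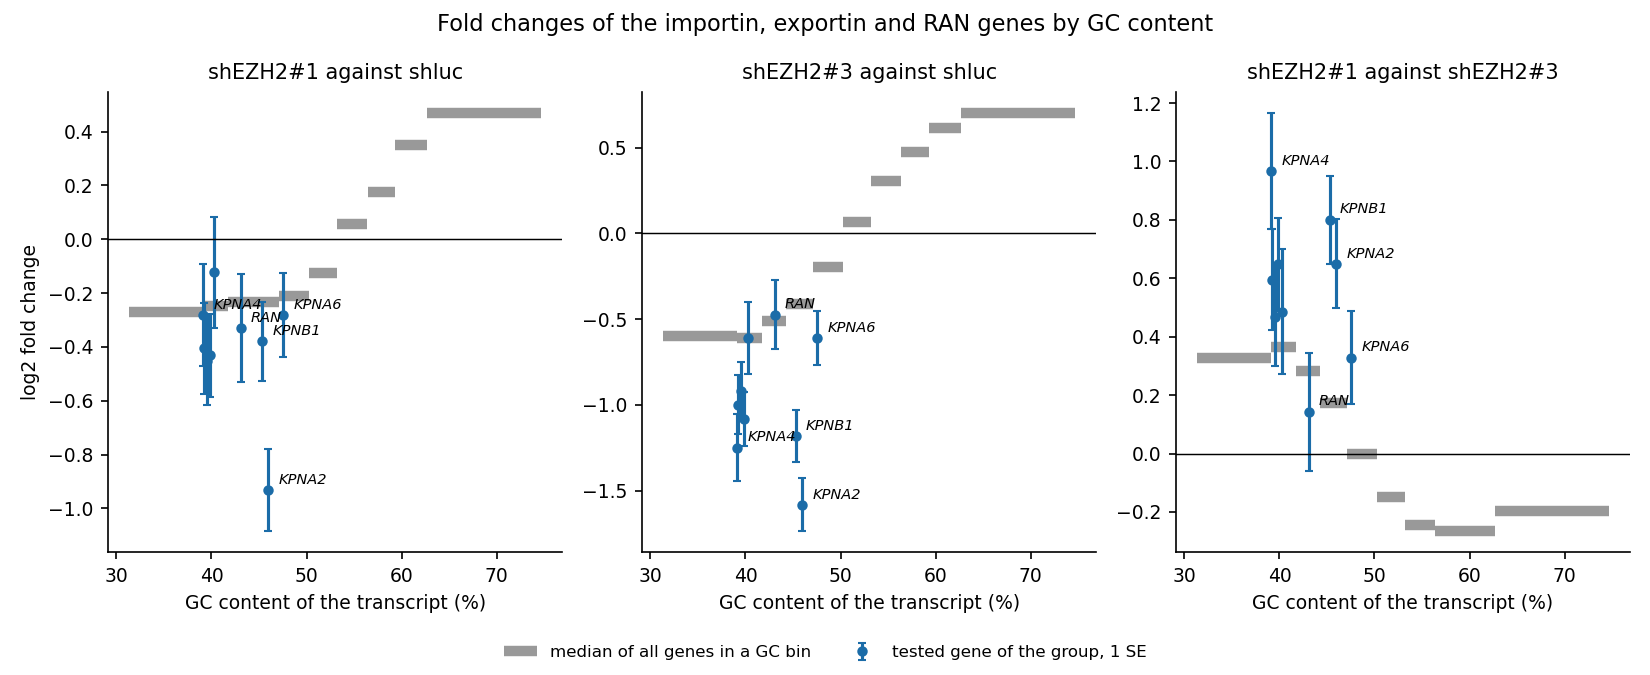
Log2 fold change (y axis) by GC content of the longest coding transcript (x axis, percent) in the same 3 comparisons. Grey bars are medians of all tested genes in 10 bins of GC, and blue points with bars of 1 SE are the 9 genes of the set, some of them named. KPNA2 lies furthest below the grey bars against shluc (−0.93 and −1.58, where the medians of its bin are −0.23 and −0.41), and RAN lies close to them there.

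Whether the trend with GC content is technical was not tested. The correction used here takes out any change that follows GC content or length, whatever its origin. With a correction for GC content and length in each library, KPNA2 kept most of its difference, with a log2 fold change of −0.73 ± 0.10 for shEZH2#1 and −1.25 ± 0.10 for shEZH2#3. The other tested importin alphas came near 0 in shEZH2#1: KPNA1 −0.08, KPNA6 0.03, KPNA3 0.18 and KPNA4 0.08. KPNB1 (−0.05), CSE1L (−0.11), XPO1 (−0.11) and RAN (−0.12) were near 0 there as well. In shEZH2#3 KPNB1 stood at −0.72 ± 0.08 and KPNA4 at −0.59 ± 0.14, followed by KPNA1 at −0.44, CSE1L at −0.41, XPO1 at −0.29 and KPNA6 at −0.28. KPNA3 (−0.02) and RAN (−0.01) were at 0 in shEZH2#3 after the correction. Under it 1 of 9 genes, KPNA2, was called lower in shEZH2#1 (9.89% of all tested genes), and 6 of 9 in shEZH2#3 (11.5%), where KPNA3 and KPNA6 lost their calls.

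The hairpins differed from each other in most of the set, while EZH2 itself did not pass (log2 fold change 0.02 ± 0.19 for shEZH2#1 against shEZH2#3, edgeR adjusted p = 0.943). The set was proposed with the levels in all 3 groups known, which also bears on this comparison. In it 6 of 9 tested genes were higher in shEZH2#1, beside 9.46% of all tested genes called higher, and 8 of 9 did not overlap in that direction, beside 19.7%. KPNA4 differed most, by 0.97 ± 0.20 (edgeR adjusted p = 0.00149), followed by KPNB1 at 0.80 ± 0.15 (edgeR adjusted p = 0.000673). KPNA2 and KPNA1 were each higher by 0.65, with an SE of 0.15 and 0.16 (edgeR adjusted p = 0.00419 and 0.00549). CSE1L was higher by 0.59 ± 0.17 (edgeR adjusted p = 0.0166) and XPO1 by 0.47 ± 0.17 (edgeR adjusted p = 0.0464). KPNA3 (0.49 ± 0.21, edgeR adjusted p = 0.103), KPNA6 (0.33 ± 0.16, edgeR adjusted p = 0.136) and RAN (0.14 ± 0.20, edgeR adjusted p = 0.643) did not pass.

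The call of XPO1 between the hairpins was lost without any 1 of the 6 hairpin libraries (edgeR adjusted p = 0.0570 to 0.189), and that of CSE1L without shEZH2#1 replicate 1 (0.49), shEZH2#1 replicate 2 (0.59) or shEZH2#3 replicate 2 (0.52). With the correction for GC content and length, KPNA4 (0.67), KPNB1 (0.67), KPNA2 (0.52) and KPNA6 (0.32) passed between the hairpins, 4 of 9 beside 13.2% of all tested genes called higher. KPNA1 (0.36, edgeR adjusted p = 0.0600), CSE1L (0.30, edgeR adjusted p = 0.0517) and XPO1 (0.18, edgeR adjusted p = 0.185) did not, and RAN stood at −0.11.

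Many genes of the set had their highest or lowest level in the same library. The share of all tested genes that did so was not counted, so nothing particular to the set is read from these counts. Of the 9 tested genes, 8 had their highest shluc level in replicate 2, and RAN had its lowest shluc level there. In shEZH2#3, replicate 3 was the highest library for 6 genes, KPNA2, KPNA4, KPNA6, XPO1, CSE1L and RAN. In shEZH2#1, replicate 1 was the highest for 6 and replicate 3 the lowest for 6, with KPNA2, KPNB1, XPO1, CSE1L and RAN in both counts.

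The genes most like KPNA2 in profile over the 9 libraries were KIF20A, ARL6IP1, NEK2, SPAG5 and AURKA, in that order among 8218 tested genes with a mean of at least 5 CPM. Likeness was the root mean square difference of log2 CPM after each gene was centred on its shluc mean, and ran between 0.122 for KIF20A and 0.195 for AURKA. KIF20A, a kinesin of late mitosis, had 47.0, 48.9 and 47.2 CPM in shEZH2#1, and 24.4, 33.3 and 38.1 CPM in shEZH2#3, against 93.0, 101 and 75.9 CPM in shluc. As with KPNA2, the order was shEZH2#3, shEZH2#1 and shluc from low to high, with no overlap. Because these genes were picked for likeness to KPNA2 over the same libraries, a shared order and similar fold changes follow from that choice. NEK2 and AURKA are mitotic kinases, SPAG5 is a spindle protein, and ARL6IP1 is a membrane protein of the endoplasmic reticulum. Their log2 fold changes were −0.96 to −0.77 in shEZH2#1 and −1.45 to −1.29 in shEZH2#3. Within the set, the profile nearest to KPNA2 was that of KPNB1, at a difference of 0.434 and rank 101, then KPNA1 at rank 108 and KPNA4 at rank 141. CSE1L stood at rank 180, XPO1 at rank 238, KPNA6 at rank 1023 and RAN at rank 1769, and KPNA3 was below the CPM limit.

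The lists of further transport genes below are read beside all tested genes, of which 11.2% were called higher and 7.89% lower in shEZH2#1, and 24.4% higher and 19.8% lower in shEZH2#3. With the correction for GC content and length these shares were 8.22% and 9.89% in shEZH2#1, and 12.7% and 11.5% in shEZH2#3. The lists were picked by name, with earlier results of these data known.

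Among the 11 other importins listed, 1 was higher and 2 lower in shEZH2#1, and 2 were higher and 7 lower in shEZH2#3. All but SNUPN belong to the beta class, whose members bind cargo without an importin alpha or with adaptors of their own. SNUPN is itself an adaptor that KPNB1 carries, and it was 1 of the 2 lower in shEZH2#1. IPO9, an importer of core histones, fell to 77.5 CPM in shEZH2#1 and 89.6 CPM in shEZH2#3, against 133 CPM in shluc (log2 fold change −0.78 ± 0.17, edgeR adjusted p = 0.00323, and −0.57 ± 0.17, edgeR adjusted p = 0.00958). IPO13, known for importing the SUMO-conjugating enzyme UBC9, rose to 57.7 CPM in shEZH2#1 and 77.9 CPM in shEZH2#3, against 39.8 CPM in shluc (0.54 ± 0.15, edgeR adjusted p = 0.0172, and 0.97 ± 0.15, edgeR adjusted p = 8.88e-05). The median of the 11 was −0.23 in shEZH2#1 and −0.61 in shEZH2#3, and −0.02 and −0.18 with the correction for GC content and length. Under that correction the calls were 1 higher and 2 lower in shEZH2#1, and 1 higher and 3 lower in shEZH2#3, where IPO9 lost its call (−0.18, edgeR adjusted p = 0.246). The call of IPO13 in shEZH2#1 was lost without shEZH2#1 replicate 2 (edgeR adjusted p = 0.0793) or replicate 3 (edgeR adjusted p = 0.0745).

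Of the 6 other exportins, 3 were lower in shEZH2#1 and 4 in shEZH2#3; the 3 were 1 when replicate 2 or 3 of shEZH2#1 or replicate 1 or 2 of shluc was left out. XPO5, the exporter of microRNA precursors, fell to 37.2 CPM in shEZH2#1 and 42.2 CPM in shEZH2#3, against 66.7 CPM in shluc (−0.84 ± 0.18, edgeR adjusted p = 0.00325, and −0.66 ± 0.18, edgeR adjusted p = 0.00624). XPO7 fell as well (−0.52 ± 0.16, edgeR adjusted p = 0.0311, and −0.55 ± 0.16, edgeR adjusted p = 0.0114), but its calls did not hold with the correction for GC content and length (−0.24 in each, edgeR adjusted p = 0.194 and 0.160). The median of the 6 was −0.50 in shEZH2#1 and −0.53 in shEZH2#3, and −0.20 and −0.34 with the correction. Under it 2 of the 6 were lower in shEZH2#1 and 2 in shEZH2#3.

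Among the 7 regulators of the RAN cycle, 4 were higher and 3 lower in shEZH2#3, while in shEZH2#1 the lowest adjusted p of the 7 was that of RANBP2. RANGAP1, which switches RAN to its GDP form, had 398 CPM in shEZH2#1, which did not pass (0.35 ± 0.17, edgeR adjusted p = 0.146), and rose to 448 CPM in shEZH2#3 (0.52 ± 0.17, edgeR adjusted p = 0.0160), against 312 CPM in shluc. RANBP2, the large RAN-binding protein on the cytoplasmic face of the pore, had 14.3 CPM in shEZH2#1, which did not pass (−0.49 ± 0.20, edgeR adjusted p = 0.0878), and fell to 9.72 CPM in shEZH2#3 (−1.04 ± 0.20, edgeR adjusted p = 0.000501), against 20.1 CPM in shluc. With the correction for GC content and length neither passed in shEZH2#3 (RANGAP1 0.15, edgeR adjusted p = 0.333, and RANBP2 −0.39, edgeR adjusted p = 0.0501), and RANGAP1 also lost its call without shEZH2#3 replicate 2 (edgeR adjusted p = 0.0813) or shluc replicate 2 (edgeR adjusted p = 0.0601). The other genes called higher in shEZH2#3 were RANBP3, NUTF2 and RANGRF, named after their values were seen, and they stood at 0.02, 0.29 and 0.14 with the correction, under which 2 of the 7 were lower in shEZH2#3, and RANGRF was lower in shEZH2#1 (−0.62, edgeR adjusted p = 0.00259). The 4 higher calls in shEZH2#3 were 2 without shEZH2#3 replicate 2 or shluc replicate 2. The 3 lower calls there were 1 without replicate 2 or 3 of either hairpin group or without shluc replicate 1.

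Of the 29 nucleoporins, the proteins that build the pore, 7 were lower in shEZH2#1, and 16 were lower and 2 higher in shEZH2#3. The 2 higher, named after their values were seen, were NUP210 (0.80) and AAAS (0.41). With the correction for GC content and length they stood at 0.40 and −0.03. The summed list was 1830 to 1956 CPM in shEZH2#1 and 2150 to 2599 CPM in shEZH2#3, against 2098 to 2608 CPM in shluc. NUP98, a mobile nucleoporin that lines the channel, fell to 85.8 CPM in shEZH2#1 and 90.9 CPM in shEZH2#3, against 155 CPM in shluc (−0.85 ± 0.18, edgeR adjusted p = 0.00327, and −0.77 ± 0.18, edgeR adjusted p = 0.00255). NUP153, which docks importin complexes at the nuclear basket, fell to 18.8 CPM in shEZH2#1 and 11.3 CPM in shEZH2#3, against 28.8 CPM in shluc (−0.62 ± 0.18, edgeR adjusted p = 0.0220, and −1.35 ± 0.19, edgeR adjusted p = 3.06e-05). NUP205, of the inner ring, fell to 51.3 CPM in shEZH2#1 and 31.7 CPM in shEZH2#3, against 74.3 CPM in shluc (−0.53 ± 0.18, edgeR adjusted p = 0.0485, and −1.23 ± 0.19, edgeR adjusted p = 7.67e-05). The shEZH2#1 calls of NUP153 (−0.28, edgeR adjusted p = 0.164) and NUP205 (−0.18, edgeR adjusted p = 0.379) were lost with the correction for GC content and length. Under it 5 nucleoporins were lower and 1 higher in shEZH2#1, and 13 lower and 4 higher in shEZH2#3, with a list median of −0.15 and −0.39. The shEZH2#1 call of NUP205 was also lost with RLE scaling (edgeR adjusted p = 0.0678), by DESeq2 (adjusted p = 0.0567), by limma-voom (adjusted p = 0.0634), with the replicate block (edgeR adjusted p = 0.0581) and without the 2 most abundant unnamed genes (edgeR adjusted p = 0.0743). The 7 lower calls in shEZH2#1 were 2 when replicate 2 or 3 of shEZH2#1 or replicate 2 of shluc was left out, and 4 when replicate 1 of either group was.

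The mRNA export factors, which use a route without importins or RAN, had a median of 0.03 in shEZH2#1 (−0.01 with no filter) and −0.01 in shEZH2#3 (−0.17 with upper quartile scaling and 0.01 with RLE scaling). Of 10 genes, 1 was lower in shEZH2#1, and 2 were higher and 1 lower in shEZH2#3. THOC7, a subunit of the THO complex, fell to 5.90 CPM in shEZH2#1 and 7.99 CPM in shEZH2#3, against 13.2 CPM in shluc (−1.16 ± 0.18, edgeR adjusted p = 0.000429, and −0.73 ± 0.18, edgeR adjusted p = 0.00355). With the correction for GC content and length its call held in shEZH2#1 (−1.15) and was lost in shEZH2#3 (−0.35, edgeR adjusted p = 0.190).

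**Figure D5:**
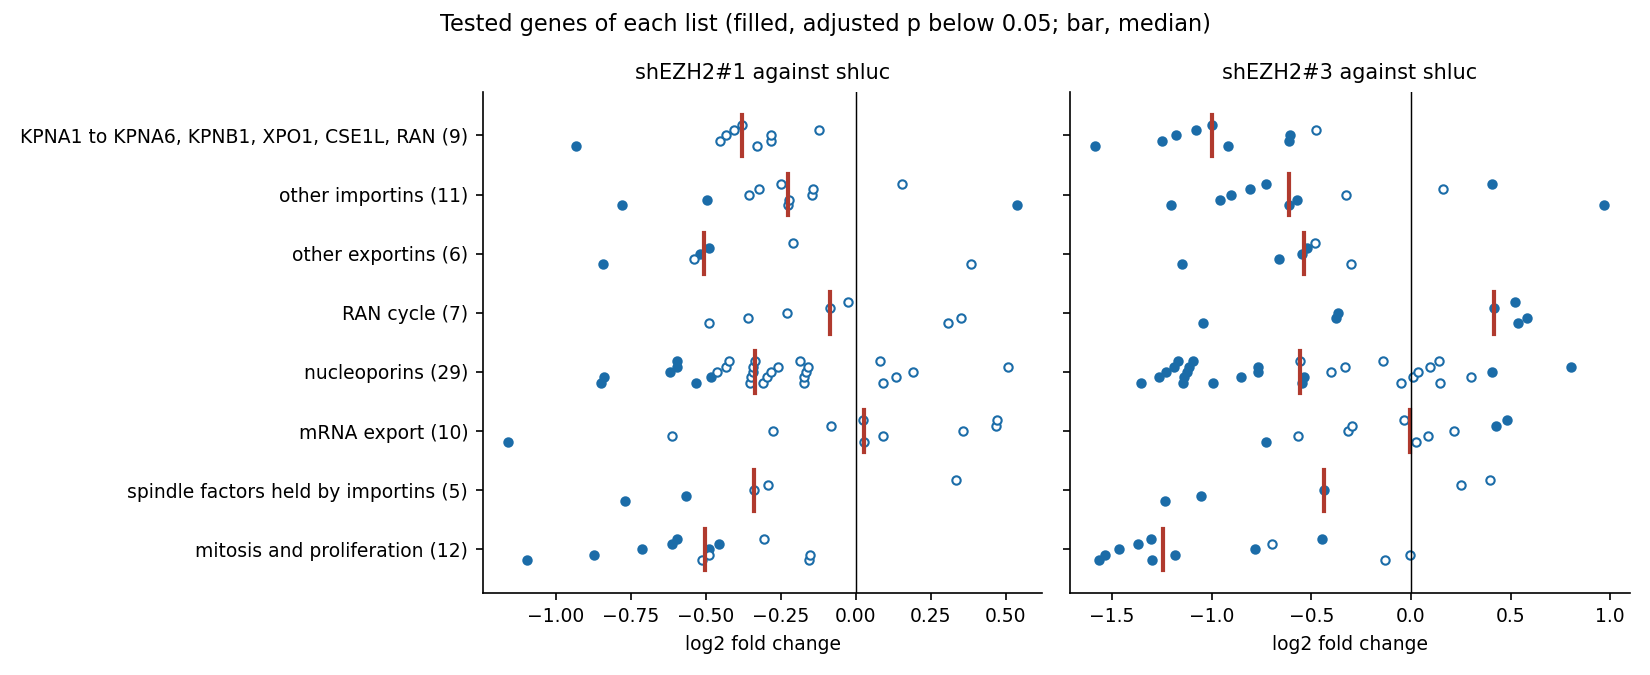
Log2 fold changes (x axis) of the tested genes of each list (y axis, number of tested genes in brackets) for shEZH2#1 and shEZH2#3 against shluc. Points are genes, filled where the adjusted p is below 0.05, spread vertically for view, and red bars are list medians. The mitosis list has medians of −0.50 and −1.24, and the mRNA export list has medians of 0.03 and −0.01.

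Spindle assembly factors that importins hold in an inactive state were lower in part. Of 5 such genes, 2 were lower in shEZH2#1 and 3 in shEZH2#3. TPX2, the activator of Aurora A whose release from importin alpha starts spindle assembly, fell to 122 CPM in shEZH2#1 and 88.5 CPM in shEZH2#3, against 208 CPM in shluc (−0.77 ± 0.15, edgeR adjusted p = 0.00149, and −1.23 ± 0.15, edgeR adjusted p = 1.05e-05). NUSAP1, which bundles spindle microtubules, fell to 26.9 CPM in shEZH2#1 and 19.2 CPM in shEZH2#3, against 39.9 CPM in shluc (−0.57 ± 0.16, edgeR adjusted p = 0.0188, and −1.05 ± 0.16, edgeR adjusted p = 8.78e-05). Both kept their calls with the correction for GC content and length, under which 4 of the 5 were lower with each hairpin. In shEZH2#3 these include KIF22, named after its values were seen, which stood at 0.25 without the correction and −0.25 with it.

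Most, but not all, markers of mitosis and proliferation were lower beside these genes. Of 12 genes, 7 were lower in shEZH2#1 and 9 in shEZH2#3, and with the correction for GC content and length 7 and 10 were lower. AURKB, CENPE and FOXM1, named after their values were seen, did not pass in shEZH2#3 (−0.13, −0.70 and −0.01). With the correction AURKB (−0.52) and FOXM1 (−0.32) were lower there. The summed level of the 12 genes was 802 to 874 CPM in shEZH2#1 and 653 to 784 CPM in shEZH2#3, against 1159 to 1236 CPM in shluc. This is the order of KPNA2, without overlap, but how often other sets of genes show it was not counted. The summed spindle factors did not separate shEZH2#3, at 942 to 1187 CPM, from shluc, at 976 to 1155 CPM, and neither did the summed nucleoporins. MKI67 fell to 81.9 CPM in shEZH2#1 and 63.3 CPM in shEZH2#3, against 175 CPM in shluc (−1.10 ± 0.19, edgeR adjusted p = 0.000674, and −1.47 ± 0.19, edgeR adjusted p = 1.80e-05). AURKA (−0.87 ± 0.15, edgeR adjusted p = 0.000683, and −1.30 ± 0.15, edgeR adjusted p = 8.28e-06) and the checkpoint kinase BUB1 (−0.60 ± 0.17, edgeR adjusted p = 0.0219, and −1.54 ± 0.18, edgeR adjusted p = 9.09e-06) fell too. The 7 lower calls in shEZH2#1 were 2 on leaving out replicate 2 or 3 of that group, and 4 on leaving out replicate 2 of shluc. The call of BUB1 in shEZH2#1 was lost with the correction for GC content and length (−0.32, edgeR adjusted p = 0.0838). The part of the proliferation genes in the levels of KPNA2 and its partners was not tested. The shEZH2#1 calls of XPO7, NUP153, NUP205, NUSAP1 and BUB1 were each lost on leaving out any 1 of replicates 2 and 3 of shEZH2#1 and replicate 2 of shluc (edgeR adjusted p = 0.0624 to 0.235), with the sign kept.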

How the data were processed

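RNA from 9 irradiated KYSE180 libraries was selected for poly(A) and sequenced as dUTP-stranded cDNA, per the labels' protocols. The submitters' processing notes list fastp, HISAT2, StringTie and GRCh38 (hg38); for counting and strand, nothing is given in the sources used here. The authors deposited estimated counts by Ensembl identifier, unscaled. A naming table gave 51996 symbols and GENCODE 29 another 342, while 5567 identifiers had none.

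The estimated counts were rounded. The test was edgeR (4.0.16, under R 4.3.3): TMM scaling, filterByExpr on the 3 groups, which kept 13252 genes, and 1 quasi-likelihood fit of all libraries with a mean per group. P-values were adjusted by Benjamini-Hochberg over all tested genes, with calls below 0.05. The SE is approximate, the unshrunk log2 fold change over the root of the F statistic. Log2 CPM used a prior count of 2. Scripts were tested on simulated data. GC content and length of the longest coding transcript, known for 97.7% of tested genes, were corrected with an offset smoothed in each library (span 0.3). Other alternatives were RLE or upper quartile scaling, limma-voom (limma 3.58.1), DESeq2 (1.42.0), no or a stricter filter, the compared groups alone, a replicate block, and each library left out.

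The members and gene lists were chosen with earlier results of these data known. Named were all members, EZH2, the 5 profiles nearest to KPNA2, copies of members, and from each transport or mitosis list up to 3 genes called with both hairpins in the same direction, by mean fold change, or up to 2 called with 1 hairpin; marker genes are named as a check. Replicates differed by more than sampling noise (chi-square per degree of freedom of at least 14.5). POM121C and PECAM1 were not analysed here.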

Additional observations from a re-analysis of the deposited data

Results flagged for a closer look

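The difference between the hairpins itself passed the test for 6 genes, each higher in shEZH2#1 than in shEZH2#3, and this is why they are listed. Over all tested genes 9.46% were called higher there, and 19.7% did not overlap in that direction. The set was proposed with the levels in all 3 groups known, so these calls are a description that supports nothing. The log2 fold changes were 0.65 for KPNA1, 0.65 for KPNA2, 0.97 for KPNA4, 0.80 for KPNB1, 0.47 for XPO1 and 0.59 for CSE1L. Every shEZH2#1 library lay above every shEZH2#3 library for each of the 6. With the correction for GC content and length KPNA1, CSE1L and XPO1 did not pass (edgeR adjusted p = 0.0600, 0.0517 and 0.185). Groups of 3 libraries are too small for the check on single outlying samples, which was not made.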

How the results depend on the processing

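Over 510 values of the tested members under the alternatives and with libraries left out, 472 kept their direction and side of the threshold, 18 lost a call, 16 gained one, and 4 changed sign. The sign changes all came with the correction for GC content and length, and none of them passed before or after: KPNA3 0.18, KPNA4 0.082 and KPNA6 0.031 in shEZH2#1 against shluc, and RAN −0.11 between the hairpins. The number of members called in shEZH2#1 against shluc was 1, but 2 with upper quartile scaling, 2 with no filter, 3 with the stricter filter, and 1 to 3 with a library left out; the cause was not tested. In shEZH2#3 against shluc it was 8, with 7 to 9 when a library was left out, 7 by DESeq2 (KPNA3 lost, DESeq2 adjusted p = 0.0519), 9 with upper quartile scaling or no filter, and 6 with the correction. Between the hairpins it was 6, with 4 to 6 when a library was left out, 8 with upper quartile scaling and 4 with the correction. For the genes that the naming rule picked from the transport and mitosis lists, 15 of 300 values under other settings lost a call. With a library left out 24 of 270 did, 1 value under other settings gained a call, and none changed sign. Over settings that kept all libraries, the correction aside, 5 to 10 nucleoporins and 5 to 9 mitosis genes were lower in shEZH2#1, and 15 to 18 and 9 in shEZH2#3; of the RAN cycle 3 to 4 were higher and 1 to 3 lower in shEZH2#3.

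Over all genes, 2523 were called in shEZH2#1, 5861 in shEZH2#3 and 3311 between the hairpins. With the correction 3207 were called in shEZH2#3. In shEZH2#1 the count was 1550 without shluc replicate 2, 1344 without shEZH2#1 replicate 2 and 1159 without shEZH2#1 replicate 3, and between the hairpins 1956 without shEZH2#1 replicate 1. Upper quartile scaling moved the median of all genes to −0.18 in shEZH2#3 and 0.18 between the hairpins, with 2421 called higher and 3720 lower (3237 and 2624 with TMM) and 2207 higher and 1404 lower (1254 and 2057). In shEZH2#1 the split was 1478 higher and 1045 lower, 1089 and 1311 with the correction, and 1707 and 779 without the 2 most abundant genes that have no symbol, an alternative chosen after seeing the data.

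The replicate numbers showed no visible pairing of the libraries: deviations of libraries with the same number correlated at −0.12 to 0.08 (9 pairs), against −0.16 to 0.16 for other numbers (18 pairs). Deviations from a mean of 3 libraries depend on each other. These correlations therefore cannot show whether libraries of the same number were handled together. With the replicate block 1, 8 and 5 members were called in the 3 comparisons, where XPO1 lost its call between the hairpins (0.46, edgeR adjusted p = 0.0680). Of the genes named from the lists, NUP205 lost its call with it.

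With 3 libraries a group, a p above the threshold does not show equal levels, and a difference in KPNA5 was not detectable at its counts. Intervals given as SE or SD cover the spread of these libraries.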
